A study of Rattus norvegicus with 8 samples.

Results

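The genes described here encode the subunits of the mitochondrial respiratory chain, with a few neighbours that carry the same name prefixes. They were taken by the gene name printed for each array probe: names that start with Nduf (complex I), Uqcr (complex III), Cox4 to Cox8 (complex IV) or Atp5 (complex V), and Sdha, Sdhb, Sdhc and Sdhd (complex II). The rule found 71 genes on 81 probes, and 70 were well above background in the sample channel on at least 4 of the 8 arrays. The gene left out was the one named Cox6b on the array (now Cox6b1), well above background on 3 arrays. The array's description of its probe names an mRNA similar to a uroplakin, so which gene the probe reads is unsettled. A value on all 8 arrays existed for 66 of the 70, and these were tested among 23187 genes. Complex I had 32 kept genes, complex II 4, complex III 5, complex IV 15 and complex V 14, of which 32, 3, 5, 13 and 13 were tested. The rule and the lists were applied to the whole table, and each p was adjusted over all of its genes.

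The respiratory chain sits in the inner mitochondrial membrane. Complexes I and II take electrons from NADH and succinate, complex III passes them to cytochrome c, and complex IV hands them to oxygen, while complexes I, III and IV pump protons. Complex V, the ATP synthase, lets the protons flow back and makes ATP. Some complex IV subunits come in isoforms, with one form in most tissues and another in heart and skeletal muscle. Normal prostate epithelium is known for exporting citrate instead of oxidising it.

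Telmisartan, which blocks a receptor for the hormone angiotensin II, was given to TRAP rats, whose transgene causes prostate cancer. All TRAP rats were heterozygous males of the SD strain, and their ventral prostate was taken at 15 weeks of age. The TRAP transgene expresses SV40 T antigen in prostate epithelium under the probasin promoter. The 4 control rats (Control 102, 103, 104 and 106) had basal diet and tap water. The 4 treated rats (Telmisartan 302, 303, 305 and 306) drank telmisartan at 10 mg/kg per day for 12 weeks, starting at 3 weeks of age. The label of these rats names 2 or 10 mg/kg per day, and 10 is the dose the design text gives for the arrays. Each rat had its own array, with its RNA in Cy5 and a reference in Cy3, which was normal ventral prostate of male F344 rats aged 6 weeks. Unless said otherwise, every value below is a log2 ratio of Cy5 over Cy3 for 1 rat, after loess scaling within its array. The scaling sets where 0 lies, so 0 means equal to the reference only under that scaling, and 1 step is a 2-fold difference. The dyes were never swapped, and 2 slides each held 2 rats of either group. Probes differ in brightness, so ratios say nothing on which transcript was more abundant. The tissue label was read against its markers in control rats: 7 of 8 luminal epithelial genes were measured, with a median of +0.44, while 5 measured genes of prostate secretion, all below 2-fold in every control rat, had a median of -6.56.

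The prefixes also take in genes that are not subunits. Ndufaf1 is an assembly factor of complex I, Cox7a2l a factor of supercomplexes, Emc8 a neighbour of Cox4i1, Cox6c-ps1 a pseudogene, and Dmac2l a gene once named as a coupling factor of the synthase. Signal was strong for most of the list: 67 of the 70 genes were well above background in Cy5 on all 8 arrays. The 3 weaker ones were Cox6b2 and Cox6c-ps1, each on 5 arrays, and Cox8b, on 4 by the probe used. Cox6b2 and Cox6c-ps1 were well above background in the reference channel on 0 arrays, so their ratios have no measured denominator.

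Promoter sequence was available for 61 of the 70 kept genes in RefSeq's table for the rat assembly GRCr8, as a window of 250 bases before to 50 bases after the gene start. The stretches below are the last 100 bases before the start. Atp5me and Cox7a2 are shown because they had, in turn, the highest level of complex V and the smallest p of any member. Cox8a and Cox8b are shown as the general and the muscle form of one subunit, and Cox6a2 as a second muscle form. Capitals mark matches on either strand to 4 motifs: the cores of the NRF1, ETS and YY1 sites and the TATA box. The letters searched for the ETS site were CCGGAAG. Those for the NRF1 site were the first run of capitals in Atp5me, but with any base allowed in the place after its A.
The letters searched for the TATA box were TATAAA.
Those for the YY1 site were AAGATGGCG.
Atp5me: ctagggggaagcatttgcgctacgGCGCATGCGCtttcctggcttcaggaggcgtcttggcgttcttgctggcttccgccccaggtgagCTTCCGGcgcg
Cox7a2: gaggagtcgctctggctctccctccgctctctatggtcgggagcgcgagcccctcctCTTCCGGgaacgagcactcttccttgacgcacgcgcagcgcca
Cox8a: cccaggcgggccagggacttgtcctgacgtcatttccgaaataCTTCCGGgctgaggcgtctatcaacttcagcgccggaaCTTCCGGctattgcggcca
Cox8b: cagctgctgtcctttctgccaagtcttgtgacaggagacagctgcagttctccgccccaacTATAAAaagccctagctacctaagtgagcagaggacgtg
Cox6a2: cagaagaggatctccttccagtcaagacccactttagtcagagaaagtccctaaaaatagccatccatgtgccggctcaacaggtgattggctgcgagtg
On GRCr8 these lie at chr14:1464760-1464859 on the plus strand (Atp5me) and, on the minus strand, at chr8:89601150-89601249 (Cox7a2), chr1:213833624-213833723 (Cox8a), chr1:205408274-205408373 (Cox8b) and chr1:192219717-192219816 (Cox6a2). Atp5me held 1 NRF1 and 1 ETS match, Cox7a2 held 1 ETS match and Cox8a held 2. Cox8b held a TATA box and no other match, and Cox6a2 held none of the 4.

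Across the 61 windows, with both strands searched and every overlapping match counted, the NRF1 letters were present in 14 (23.0%), against 4.71% of all 27457 RefSeq promoter windows. The ETS letters were present in 19 (31.1%, against 9.22%) and the YY1 letters in 9 (14.8%, against 1.93%). TATA boxes went the other way, with 4 windows (6.56%, against 14.3%). Either the NRF1 or the ETS letters were found in 32 windows, 52.5% of the members against 13.0% of all promoters. The complexes were not alike in count: NRF1 letters were in 5 of 13 complex V windows and 7 of 29 complex I windows, and in 0 of 11 complex IV windows, where ETS letters were in 5. These windows include those of genes that are not subunits, such as Emc8, which held ETS letters, and Cox7a2l in complex IV. Sdha, the catalytic flavoprotein of complex II, held 3 NRF1 matches, the most of any member. These are matches of letters and no evidence of binding.

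The comparison of treated with control rats asks what telmisartan does to these genes in the tumour-bearing gland. The 66 genes lay close to their control level in all 5 complexes. With limma and Benjamini-Hochberg adjustment over all genes, 0 of 66 members passed, as did 0.0% of the 23187 genes. At an unadjusted p under 0.05 there were also 0 members, against 4.81% of all genes (2.74% higher and 2.07% lower), and 0 members had groups that did not overlap, against 2.73%. The smallest adjusted p of any member was 0.982. Treated means were higher for 41 members (62.1%, against 49.4% of all genes) and lower for 25. The median difference was +0.03, against -0.002 over all genes, and its median size was 0.05, against 0.09. The split by sign depended on the scaling: with the scanner software's own ratio 40 members were higher, from Cy5 only 51, and with median centring in place of loess 61, where the median over all genes was +0.04 and 59.8% of all genes were higher. In these settings 0 members passed as well.

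The arrays limited how small a change could be seen. The median standard error of a member's difference was 0.11, and the 95% interval of limma lay within 2-fold for 66 of 66 members, against 95.9% of all genes. The lowest bound of any interval was -0.53, for Ndufa1, and the highest +0.83, for Ndufv2. The p-values measure the spread between these rats. In bulk tissue, fewer cells of a type and less RNA per cell cannot be told apart.

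**Figure D1:**
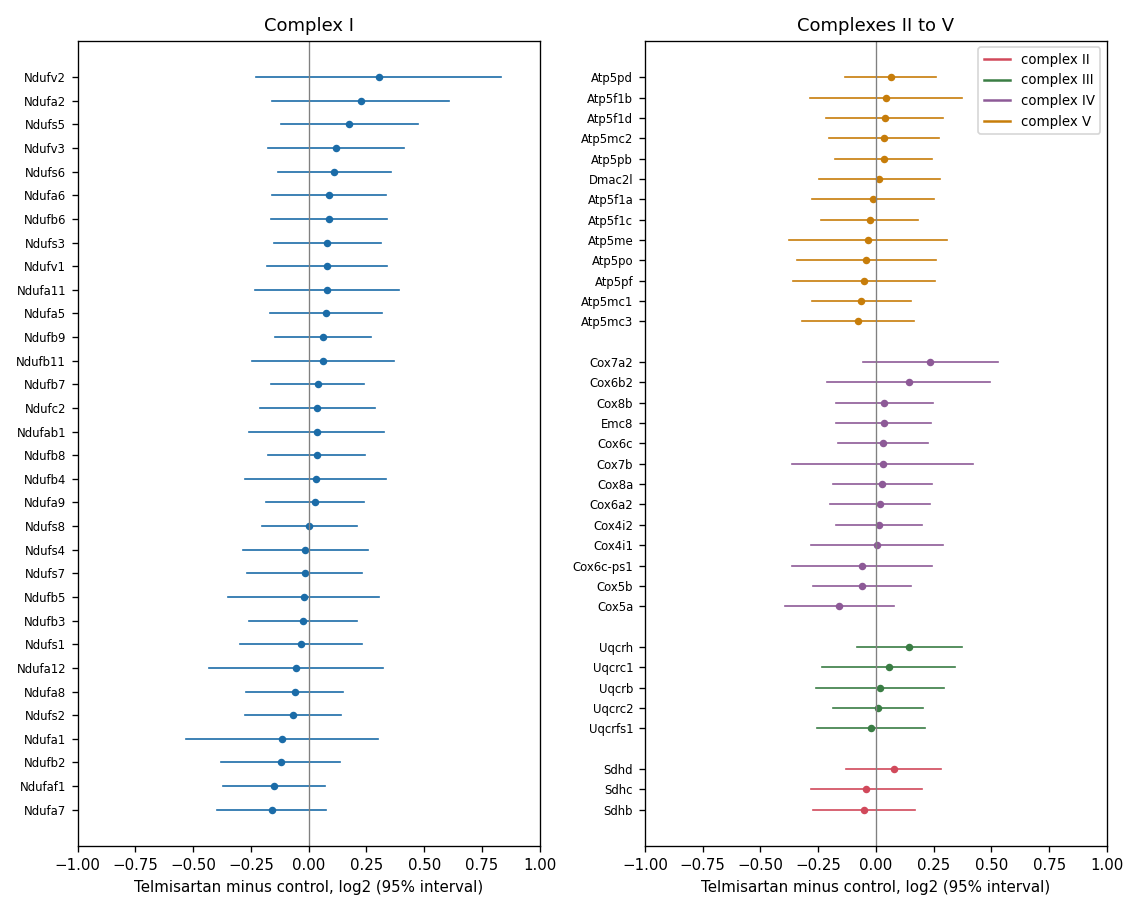
Difference of telmisartan from control rats in log2(Cy5/Cy3) for the 66 tested genes (x axis), with the 95% interval of limma (n = 4 each), genes on the y axis sorted within complex and coloured by complex. Every interval crosses 0 and stays within 2-fold, and the widest is that of Ndufv2.

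Complex I, the NADH dehydrogenase, had a median difference of +0.03 over 32 genes, with 20 higher and 12 lower (29 and 3 with median centring, median +0.16). Its 7 core subunits, which carry the flavin and the iron-sulfur clusters, had a median of +0.003, and 24 accessory subunits +0.04. Ndufa7, an accessory subunit, had the largest negative difference of the list. It was at 0.16, 0.32, 0.58 and 0.25 in the control rats, in the order 102, 103, 104 and 106. In the treated rats, in the order 302, 303, 305 and 306, it was at 0.14, 0.19, 0.16 and 0.18. The treated rats were nearly alike, and only Control 102 fell among them. The difference was -0.16 (SE 0.11, limma adjusted p = 0.982).

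Ndufaf1, the assembly factor, had a difference of -0.15 (SE 0.10, limma adjusted p = 0.982). It was at -0.06, -0.17, 0.01 and -0.26 in control and -0.41, -0.21, -0.21 and -0.25 in treated rats. The treated rats overlapped the control rats through Control 106, which was lower than 3 of them. Ndufs5, an accessory subunit named Ndufs5b on the array, was at -1.01, -0.46, -0.81 and -0.92 in control and -0.61, -0.52, -0.81 and -0.54 in treated rats. Control 103 was the highest of all 8, and the difference was +0.18 (SE 0.13, limma adjusted p = 0.982).

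Ndufa2, an accessory subunit, had the lowest level of complex I. It was at -1.27, -0.60, -1.20 and -1.31 in control and -0.68, -0.70, -1.08 and -1.01 in treated rats. Control 103 stood above every other rat, while the 3 remaining control rats lay below all treated rats. The difference was +0.22 (SE 0.17, limma adjusted p = 0.982), and a second probe of the gene gave +0.20. Ndufa12, an accessory subunit with the highest level of complex I, was at 0.26, 1.03, 0.44 and 0.40 in control and 0.40, 0.72, 0.33 and 0.46 in treated rats. Control 103 was again the highest, and the difference was -0.06 (SE 0.17, limma adjusted p = 0.997).

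Ndufv2, a core subunit that carries an iron-sulfur cluster, is named after its values were seen because its difference was the largest of the list. It was at -0.28, -0.05, -1.17 and -0.88 in control and -0.0026, -0.23, -0.56 and -0.38 in treated rats. The rats split by slide, not by treatment alone: Control 104 and 106, both on slide 2, were the lowest 2 of the 8. The difference was +0.30 (SE 0.24, limma adjusted p = 0.982), with +0.05 on slide 1 and +0.56 on slide 2.

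Complex II, succinate dehydrogenase, is also an enzyme of the citric acid cycle. Its 3 tested genes had a median difference of -0.04, and the sign turned with the scaling: all 3 were higher with median centring (median +0.056) and in Cy5 alone (+0.054). Sdhb, the iron-sulfur subunit, was at -0.26, -0.29, -0.08 and -0.11 in control and -0.39, -0.14, -0.18 and -0.24 in treated rats. Sdhc, a membrane anchor, was at 0.35, 0.58, 0.22 and 0.19 in control and 0.36, 0.33, 0.20 and 0.30 in treated rats. Sdhd, the other membrane anchor, was at 0.23, 0.24, 0.16 and 0.06 in control and 0.33, 0.24, 0.13 and 0.30 in treated rats. In each of the 3 genes the groups overlapped. The differences were -0.05 (SE 0.10) for Sdhb, -0.04 (SE 0.11) for Sdhc and +0.08 (SE 0.09) for Sdhd, each with a limma adjusted p of at least 0.985. Sdha lacked a value in Telmisartan 306, where the scanner software had marked its spot as an outlier, and was not tested. It was at 0.21, 0.11, 0.11 and 0.16 in control rats, and at 0.24, 0.11 and 0.06 in the 3 other treated rats, so the groups overlapped.

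Complex III, the cytochrome bc1 complex, had a median difference of +0.02, with 4 of 5 genes higher. Uqcrh, the hinge protein, was at -0.80, -0.55, -0.77 and -0.75 in control and -0.50, -0.45, -0.71 and -0.63 in treated rats. Control 103 was the 1 control rat within the treated range, and the difference was +0.14 (SE 0.10, limma adjusted p = 0.982). The core protein Uqcrc1 differed by +0.06 (SE 0.13), with +0.21 on slide 1 and -0.10 on slide 2. The Rieske iron-sulfur protein Uqcrfs1 differed by -0.02 (SE 0.10), Uqcrb, a small accessory subunit, by +0.02 (SE 0.12), and the core protein Uqcrc2, the lowest of the complex, by +0.01 (SE 0.09). Of 3 Uqcrb probes, the dimmest gave -0.16 and another +0.04.

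Complex IV, cytochrome c oxidase, had a median difference of +0.03, with 10 of 13 genes higher. With the scanner software's own ratio 8 of 13 were higher, and with median centring 11. Cox7a2, the form of subunit VIIa found in most tissues, had the smallest unadjusted p of all 66 members (0.101). It was at -1.33, -0.79, -1.15 and -1.24 in control and -0.94, -0.77, -1.03 and -0.83 in treated rats. All treated rats lay above 3 of the control rats, and Control 103 stood beside the highest of them. The difference was +0.24 (SE 0.13, limma adjusted p = 0.982), a 1.18-fold difference, with +0.21 on slide 1 and +0.26 on slide 2.

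Cox5a, which encodes subunit Va and had the highest level of complex IV, was at 0.66, 0.41, 0.57 and 0.47 in control and 0.58, 0.29, 0.31 and 0.29 in treated rats. Telmisartan 302 lay among the control rats, and the 3 other treated rats lay below all of them. The difference was -0.16 (SE 0.11, limma adjusted p = 0.982), with -0.10 on slide 1 and -0.22 on slide 2. Cox6b2, the testis form of subunit VIb, differed by +0.14 (SE 0.16), with the limit on its reference signal given above. The sign of this difference turned with the scanner software's own ratio, which gave -0.14.

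Complex V, the ATP synthase, had a median difference of -0.01, with 6 of 13 genes higher. The sign turned here too, with 13 of 13 higher under median centring (median +0.11) and 9 of 13 in Cy5 alone (+0.052). Its 4 tested genes of the F1 head, where ATP is made, had a median of +0.01, and 8 genes of the membrane part and the stalk -0.04. The smallest unadjusted p in the complex was 0.486, that of Atp5pd, a stalk subunit, at +0.06 (SE 0.09). The genes of the proton-carrying c ring, Atp5mc1 and Atp5mc3, differed by -0.06 (SE 0.10) and -0.08 (SE 0.11), and the third of them, Atp5mc2, by +0.03 (SE 0.11). Atp5f1b, the catalytic beta subunit, differed by +0.04 (SE 0.15). Atp5me, the membrane subunit e, was at 0.66, 1.09, 0.88 and 0.65 in control and 1.15, 0.75, 0.52 and 0.72 in treated rats. Telmisartan 302 and Control 103 were its highest rats, so the highest came from both groups, and the difference was -0.03 (SE 0.15, limma adjusted p = 0.997).

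Apart from Sdha, 3 kept genes could not be tested because marked spots were left out: Cox6a1, Atp5f1e and Cox7a2l. With those spots kept, the differences were +0.03 for Cox6a1, -0.08 for Atp5f1e, +0.01 for Cox7a2l and +0.002 for Sdha, none of which passed in limma (smallest adjusted p 0.983).

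The members' median ran from -0.30 to -0.13 in single control rats and from -0.25 to -0.19 in treated rats, with means over rats of -0.19 and -0.22. Control 102 had the lowest value of the 8 rats for 25 of 66 members (37.9%, against 13.8% of all genes) and the highest for 1. Telmisartan 302 had the highest value for 19 members (28.8%, against 19.5% of all genes) and Control 103 for 18 (27.3%, against 15.3%). The median deviation of the members from their mean over 8 rats was -0.12 in Control 102, +0.08 in Control 103 and +0.07 in Telmisartan 302. In the 5 other rats it ran from -0.06 to +0.03. Over all genes the same deviation ran from -0.01 to +0.02. So a control rat had the lowest members, and 1 rat of either group had the highest.

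The low values of Control 102 were shared by complexes I (-0.13), III (-0.16), IV (-0.12) and V (-0.14), but not by complex II (+0.02). In Control 103 the 24 accessory subunits of complex I deviated by +0.15 and the 7 core subunits by +0.05. Ndufa1, an accessory subunit, shows that rat: it was at 0.16 in Control 103 and between -0.72 and -0.47 in the other 7. Cox7b, of subunit VIIb, was at 0.29 there and between -0.55 and -0.07 in the others. These genes were picked after their values were seen.

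**Figure D2:**
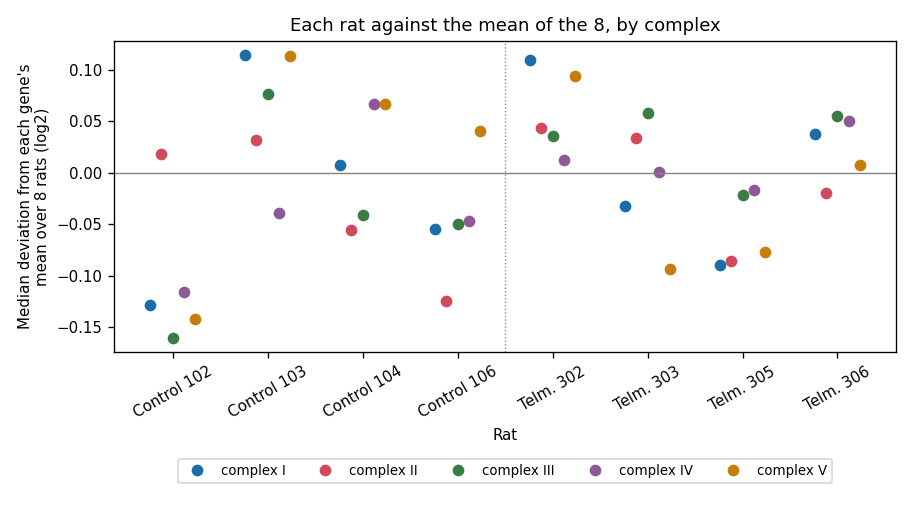
Median deviation of each complex's genes from their mean over the 8 rats (y axis, log2) in each rat (x axis; control rats left of the dotted line), 1 point per complex. Control 102 is low in complexes I, III, IV and V, and Control 103 and Telmisartan 302 are high in complexes I and V.

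The place of Control 102 did not depend on the scaling, and that of the high rats did. With the scanner software's ratio Control 102 was lowest for 28 members, with the Cy5 channel alone for 33 and with median centring in place of loess for 39. Control 103 and Telmisartan 302 were highest for 17 and 20 members with the scanner software's ratio and for 17 and 23 in Cy5 alone. With median centring they were highest for 5 each, and Telmisartan 303 and 306 for 29 and 23. In some rats, though not in all, all genes shifted the same way as the members, by less. In Control 106, with median centring, all genes deviated by +0.019 and the members by -0.045. In that setting the median deviation of all genes was +0.06 in Telmisartan 303, +0.09 in 306 and -0.06 in Control 102. That of the members was +0.22, +0.19 and -0.27. In Cy5 alone all genes deviated by -0.04 in Control 102 and +0.05 in Telmisartan 302, and the members by -0.13 and +0.07. Immune markers were lowest in the rats where members were most often highest after loess. The mean of 10 T cell markers was 0.31 in Telmisartan 302 and 0.55 in Control 103, and between 0.91 and 2.02 in the 6 others. It was 2.02 in Control 102. In Telmisartan 303 and 306, the high rats with median centring, it was 0.91 and 1.15. All 10 were measured, and their summed Cy5 intensity ran from 13508 to 79544 in control and from 10492 to 54148 in treated rats. The mean of 7 MHC class II markers was 0.08 in Telmisartan 302 and 0.50 in Control 103, and 1.16 or more elsewhere. Their part in the members' values was not tested.

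Without Control 103, 4 of 66 members had an unadjusted p under 0.05 (6.06%, against 8.72% of all genes in the same fit, both directions counted). All 4 were higher in treated rats, as were 3.38% of all genes at that p: Cox7a2 at +0.35 (SE 0.11), Ndufa2 at +0.39 (SE 0.13), Ndufs5 at +0.29 (SE 0.11) and Ndufv2 at +0.49 (SE 0.21). Their limma adjusted p ran from 0.545 to 0.572, so 0 passed. Without Telmisartan 302 there was 1 such member, Cox5a (1.52%, against 6.28% of all genes). Without each of the 6 other rats there were 0, against 2.87% to 7.58% of all genes. The genes of this paragraph were named after their values were seen.

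Levels over the reference describe the TRAP gland against normal prostate and carry no test, because strain, age, transgene and dye differ between the channels at once. In control rats the median level was -0.30 for complex I, +0.17 for complex II, -0.36 for complex III, -0.23 for complex IV and -0.09 for complex V. Over all 66 members it was -0.22, against +0.06 over all genes. In all 8 rats 36 members lay below 0 (54.5%, against 25.7% of all genes) and 13 above (19.7%, against 30.8%). After loess 56 members were within 2-fold of the reference in all 8 rats (84.8%, against 74.7%). By the mean of the control rats these were 61 members after loess (92.4%, against 85.1% of all genes) and 30 with median centring (45.5%, against 60.4%).

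The side of the reference on which complexes I, III, IV and V fell turned with the scaling, while complex II was above 0 in each of 3 scalings. With median centring in place of loess, which moved the median of all genes from +0.06 to +0.67, the medians were +0.99 for complex I, +1.51 for complex II, +0.80 for complex III, +0.84 for complex IV and +1.25 for complex V. Relative to all genes, the members' median then went from -0.28 to +0.41. The scanner software's own ratio gave -0.26 for all members, near the loess value. No direction of the list over the reference is therefore given. Complex II had the highest median and complex V the next in each of these 3 scalings.

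**Figure D3:**
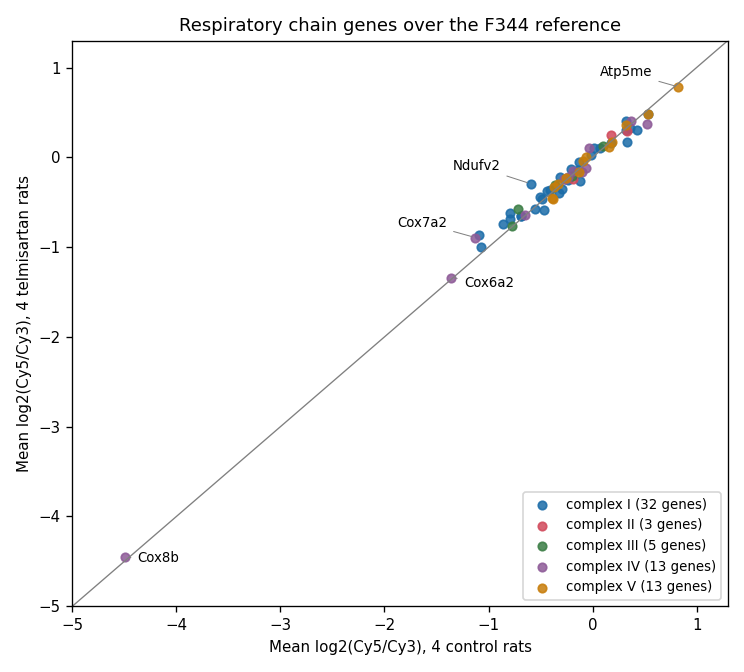
Mean log2(Cy5/Cy3) over the F344 reference after loess in 4 control rats (x axis) and 4 telmisartan rats (y axis), 1 point per gene, coloured by complex, with the line of equality. The genes lie along the line in all complexes, and Cox8b at -4.49 and Cox6a2 at -1.36 stand at the low end.

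The highest members in control rats were Atp5me at +0.82 ± 0.21, Ndufa12 at +0.53 ± 0.34, Cox5a at +0.53 ± 0.11, Sdhc at +0.34 ± 0.18 and Uqcrb at +0.10 ± 0.23 (SD, n = 4), each the top of its complex. The lowest of each complex were Ndufa2 at -1.09 ± 0.33, Sdhb at -0.18 ± 0.10, Uqcrc2 at -0.77 ± 0.05, Cox8b at -4.49 ± 0.11 and Atp5mc1 at -0.39 ± 0.10. With median centring all 10 of these stood above 0 except Cox8b.

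After loess the muscle isoforms of complex IV were the lowest members. With median centring Cox8b was still the lowest, but Cox6c-ps1 (-0.58) and Cox6b2 (-0.51), which lack a measured reference signal, lay below Cox6a2 (-0.40). After loess, below 2-fold in all 4 control rats, and in all 8 rats, were 2 members: Cox8b and Cox6a2 (3.03% of members, against 4.18% and 3.29% of all genes). Above 2-fold in all 4 were 0 (against 5.19%), and in all 8 rats 0 (against 3.73%). This count rests on the scaling: by the mean of the control rats 0 members were above 2-fold after loess (against 8.84% of all genes) and 35 with median centring (53.0%, against 37.4%). Cox8b, the heart and muscle form of subunit VIII, was at -4.46, -4.60, -4.36 and -4.57 in control and -4.36, -4.49, -4.51 and -4.46 in treated rats. Its Cy5 signal was well above background in 3 control rats and 1 treated rat, so the low channel was near its limit and no exact fold is given. The other 2 probes of the gene, at +0.04 and +0.34, disagreed. Their Cy5 signal was well above background on 4 and 8 arrays, and their reference signal on 1 and 0 arrays.

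Cox6a2, the heart and muscle form of subunit VIa, was at -1.41, -1.45, -1.16 and -1.41 in control and -1.32, -1.40, -1.35 and -1.28 in treated rats, all within a narrow band. It was 2.56-fold below the reference after loess, and at -0.40 with median centring. Cox8b was at -3.88 with median centring and at -6.36 with the scanner software's ratio, which replaces weak signals by surrogate values. After loess the general forms Cox8a and Cox6a1 were near the reference, at -0.18 ± 0.07 and +0.04 ± 0.26 (SD, n = 4 control rats). With median centring Cox8a was at +1.20. The general form Cox7a2 was not near it after loess, at -1.13 ± 0.24, and was at +0.24 with median centring. Of 16 isoforms listed, 8 were tested. Cox4i1, the common form of subunit IV, was at -0.65 ± 0.21 and Cox4i2, known from lung and for its response to low oxygen, at -0.23 ± 0.06. Between treated and control rats these isoforms differed by +0.04 (SE 0.09) for Cox8b, +0.02 (SE 0.10) for Cox6a2, +0.03 (SE 0.10) for Cox8a, and +0.01 for Cox4i1 (SE 0.13) and Cox4i2 (SE 0.08).

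**Figure D4:**
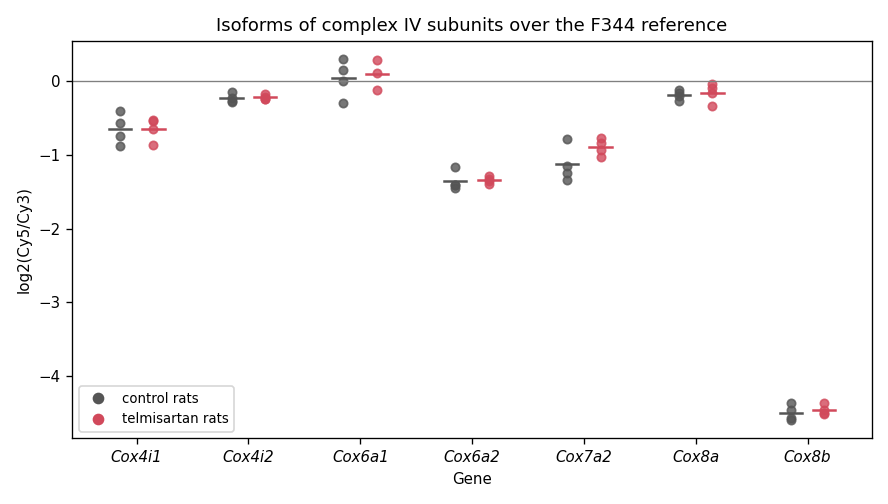
Log2(Cy5/Cy3) after loess of complex IV isoforms (x axis) in each control and telmisartan rat (points; bars are group means; 1 treated rat has no value for Cox6a1). Cox8b lies between -4.60 and -4.36 and Cox6a2 between -1.45 and -1.16 in the 8 rats. Of the general forms, Cox8a and Cox6a1 lie near 0, and Cox7a2 lies between -1.33 and -0.77.

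Skeletal muscle markers were low in the same rats. Of 13 listed, 8 were measured, and all 8 lay below 2-fold in all 4 control rats, with a median of -4.00. Mb, the muscle myoglobin gene, was at -2.81 ± 0.11 and Pygm, muscle glycogen phosphorylase, at -2.34 ± 0.12 (SD, n = 4). The summed Cy5 intensity of the 8 markers ran from 18646 to 25201 in control and from 19373 to 24861 in treated rats. Their part in the levels of Cox8b and Cox6a2 was not tested.

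Other genes of mitochondrial energy metabolism were read from the same fit, and 0 of each list passed after adjustment. Of 13 citric acid cycle genes, 8 were higher in treated rats and 5 lower (median +0.04). Suclg1, a succinyl-CoA ligase subunit, differed by +0.28 (SE 0.12, limma adjusted p = 0.982) and Cs, citrate synthase, by -0.16 (SE 0.08). Of 9 measured genes for electron carriers or for the synthesis of the carrier coenzyme Q, 6 were higher and 3 lower. Cycs, cytochrome c, was at 0.33, 0.54, 0.47 and 0.31 in control and 0.24, 0.12, 0.08 and 0.14 in treated rats. The groups did not overlap, and the difference was -0.27 (SE 0.09, unadjusted p = 0.0169, limma adjusted p = 0.982). Etfb, a subunit of the electron transfer flavoprotein, differed by -0.35 (SE 0.18).

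Genes that build the chain also lay near 0. Of 12 measured assembly factors of complex I, 4 were higher and 8 lower (median -0.02), with Ndufaf5, a factor of that assembly, at -0.13 (SE 0.09). With the scanner software's ratio 7 of these 12 were higher, and with median centring 9. Of 15 measured for complexes II to V, 7 were higher and 8 lower (13 higher with median centring), with Cox15, of heme A synthesis, at +0.11 and Fmc1, of ATP synthase assembly, at +0.12. Of 13 biogenesis genes, 9 were higher (median +0.07), where 49.4% of all genes were higher. With median centring 12 were higher (59.8% of all genes), and in Cy5 alone 8 (56.8%). The transcription factor Nrf1 was at +0.17 (SE 0.10), but at -0.0084 in Cy5 alone. The mitochondrial RNA-binding protein Lrpprc was at +0.13 (SE 0.09). Of 8 carrier and uncoupling genes, 4 were higher, with Slc25a4, the ADP/ATP carrier, at -0.12 and Atp5if1, the inhibitor of the synthase, at +0.16.

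Hypoxia targets were lower in treated rats for 11 of 14 genes (median -0.08), where 49.4% of all genes were higher. Of the 14, 2 were lower at an unadjusted p under 0.05 in limma, as were 2.07% of all genes. P4ha1, a collagen prolyl hydroxylase subunit, differed by -0.48 (SE 0.10, limma adjusted p = 0.803) and Slc2a1, the glucose transporter GLUT1, by -0.41 (SE 0.17, adjusted p = 0.982). In Cy5 alone 8 of the 14 were still lower (median -0.040, with 56.8% of all genes higher). With median centring 8 were higher (median +0.006, with 59.8% of all genes higher), so the direction turned under that scaling. The respiratory chain genes, read beside it, had 41 of 66 higher and the median of +0.03 given above.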

How the data were processed

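RNA of 8 TRAP prostates, 4 control and 4 telmisartan, was measured on 2-colour Agilent arrays, 1 rat per array. Per the file headers, images were read with Agilent Feature Extraction 9.1, also named in the submitters' processing notes. The deposited scanner files give the mean intensity and median background intensity of each spot in both channels, uncorrected. They also give a log10 ratio that the software had background-subtracted and dye-normalized, per the file headers. The deposited series values are log10 ratios that matched these within 0.005 (median per array 0), so scale and direction are known.

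The intensities were corrected with normexp (offset 50) and normalized by loess within arrays, control spots at weight 0 (limma 3.58.1, R 4.3.3). Each array held 43379 gene spots, of which 59.2% to 76.8% were well above background in Cy5. The number of arrays limits the precision. Spots marked as outliers were left out and saturated spots kept. A filter kept 27540 of 41012 probes, those well above background in Cy5 on 4 or more arrays. The brightest probe stood for a gene, named by current RefSeq symbol (GRCr8): 10735 probes matched by accession, 5571 by symbol and 3729 by older symbol, and 20977 kept the file's name. Groups were compared on log2 ratios computed from the deposited intensities with lmFit and eBayes (two-sided tests, a Benjamini-Hochberg threshold of 0.05 across every gene). The code was tested on simulated data.

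The members, lists and rules were chosen with earlier results of these data known. Named genes are, per complex, the 3 members with the smallest p, the highest and the lowest level, all isoforms and complex II genes, and up to 2 genes per other list by smallest p. Alternatives covered normalization, the Cy5 channel, filters, several probes of a gene, slide, variance model, array weights and each rat left out. Each slide held 2 rats of either group, and the position on a slide cannot be told apart from the group.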

Additional observations from a re-analysis of the deposited data

Results flagged for a closer look

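Of 92 groups of 4 rats looked at, 7 held a rat whose gap to its nearest neighbour, as a share of the group's range, was above Dixon's 95% critical value. Chance gives such a gap in about 1 in 20 groups. Among the members, Cox5a was at 0.58 in Telmisartan 302, above the 3 other treated rats. Cox6a2 was at -1.16 in Control 104 and Ndufa2 at -0.60 in Control 103, each above the other control rats. Among other genes of the lists, Cs was at 0.083 in Telmisartan 302 and Mb at -2.92 in Telmisartan 305, each above the other treated rats. Ndufaf5 was at -0.18 in Control 104, above the other control rats, and Slc2a1 at -0.065 in Control 103, below them.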

How the results depend on the processing

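With 4 rats a group, the half-width of a member's 95% interval ran from 0.18 to 0.53 on the log2 scale (widest for Ndufv2, median 0.25), so estimates smaller than that could not be told from 0. Of 312 medians and counts recomputed, 289 moved by less than the spread between rats or, for counts, by less than 1.5 times. Members that passed numbered 0 in every setting run. Over all genes 1 passed without Control 102 and 1 without Telmisartan 303 (0 to 1 with a rat left out), and neither was a member. The differences of named genes were recomputed 860 times, and none crossed the threshold. The causes of the changes that follow were not tested. Leaving out genes that are not subunits, adding genes by current symbol, keeping marked spots and rescaling the rats' ranks were chosen after seeing the data.

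Median centring moved the differences to +0.16 for complex I, +0.056 for complex II, +0.11 for complex IV, +0.11 for complex V and +0.13 for all members. It moved the levels to +0.99, +1.51, +0.80, +0.84 and +1.25 for complexes I to V and +1.07 for all members. In Cy5 alone the differences were +0.054 for complex II and +0.057 for complex IV. Complex IV differed by +0.058 on slide 1 alone and by -0.014 on slide 2 alone. Its level was -0.27 with the scanner software's ratio, the series values or subunits only. With a rat left out its difference ran from -0.0014 to +0.052 and its level from -0.24 to -0.18.

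Of the 860 differences 66 changed sign. With the scanner software's ratio these were Cox6b2 (-0.14) and Cox8b (-0.18), and with the series values Cox6b2 (-0.14) and Cox8b (-0.18). With median centring they were Atp5mc1 (+0.046), Atp5mc3 (+0.021), Atp5me (+0.11), Ndufa12 (+0.071), Sdhb (+0.056), Sdhc (+0.056) and Uqcrfs1 (+0.11). In Cy5 alone they were Atp5me (+0.12), Nrf1 (-0.0084), Sdhb (+0.026), Sdhc (+0.054) and Uqcrfs1 (+0.011), and with all probes of a gene averaged Uqcrb (-0.033). On slide 1 alone they were Atp5mc1 (+0.035), Atp5me (+0.074), Cox7b (-0.015), Cox8a (-0.010), Sdhb (+0.0081), Uqcrb (-0.015) and Uqcrc2 (-0.029). On slide 2 alone they were Cox4i1 (-0.048), Cox4i2 (-0.031), Cox6a2 (-0.033), Cox8b (-0.025), Sdhc (+0.042), Uqcrc1 (-0.10) and Uqcrfs1 (+0.034). With array weights they were Cox4i2 (-0.0090), Cox6a2 (-0.0016), Ndufa12 (+0.015), Sdhc (+0.0037) and Uqcrfs1 (+0.027). With a rat left out, differences that changed sign ran from -0.073 to +0.087 for Cox4i1, -0.064 to +0.21 for Cox7b, -0.043 to +0.13 for Uqcrb, -0.022 to +0.13 for Uqcrc1, -0.16 to +0.056 for Atp5me, -0.0021 to +0.041 for Cox4i2, -0.014 to +0.084 for Cox6a2, -0.010 to +0.086 for Cox8a, -0.15 to +0.11 for Ndufa12, -0.089 to +0.041 for Sdhc, -0.077 to +0.032 for Uqcrfs1 and -0.024 to +0.040 for Uqcrc2.

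No paired analysis was possible because the 2 groups share no replicate numbers.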
